A study of Mus musculus with 24 samples.

Results

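Complement proteins tag cells and debris for removal. In the alternative pathway C3 is opened at the tissue itself: factor B (Cfb) binds to surface-bound C3, factor D (Cfd) cuts factor B to form the enzyme that cleaves more C3, and properdin (Cfp) holds that enzyme together. The released fragments C3a and C5a act on the receptors C3ar1 and C5ar1 of leukocytes and other cells, while factor I (Cfi), Cd55 and Cd59a hold the cascade back on host cells. In the eye the pathway is best known from age-related macular degeneration, in which variants of its genes are linked to disease of the choroid and the pigment epithelium.

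These 9 genes, 4 of the activation steps, 2 receptors and 3 control proteins, were chosen by name, with earlier results of these data known. They were matched by symbol to the gene identifiers of a table of 56065 genes. All 9 were found. Choroidal RNA was measured in 24 mouse libraries made with the SMART-Seq method, which amplifies full-length cDNA from small amounts of RNA. There were 9 libraries of wild type mice after laser and 4 without laser, and 7 of Ceacam1-/- mice after laser and 4 without laser. The study describes Ceacam1-/- mice with a homozygous deletion of exons 1 and 2 of Ceacam1, and wild type littermates, on a C57BL/6J background. They were young adults unless stated otherwise. The study does not describe laser-treated mice. Per the labels, 6 laser spots were set in each eye with an Nd:YAG laser to induce choroidal neovascularization, the growth of new choroidal vessels. The study used both sexes and gives n = 4 mice per genotype for choroid RNA, the number of libraries without laser here. The time between laser and sampling and the sex of the mice behind each library were not given in the sources used here. It was also not given whether a library was 1 eye or 1 mouse, or after laser a pool, so p-values measure only the spread between these libraries. The labels call the tissue choroidia, and the study uses choroid for the complex of pigment epithelium, choroid and sclera.

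The values are normalized counts, which are estimated reads of a gene divided by factors for the size of the library and the length of the transcripts. They summed to between 23704346 and 35094410 per library. Laser libraries carry the numbers 1 to 19 and libraries without laser 21 to 28, and effects of laser and of any order of preparation cannot be told apart. Ceacam1 itself had 958, 5027, 1242 and 4596 normalized counts in the wild type libraries without laser and 405, 505, 508 and 1171 in the Ceacam1-/- libraries. After laser it was at 774 in the lowest, 996 in the median and 8367 in the highest wild type library, against 67.8, 335 and 905 in Ceacam1-/- libraries. The ranges of the genotypes overlapped with and without laser. Group means were lower in Ceacam1-/- libraries, at 647 against 2956 without laser and 373 against 1869 after it. As its check of the deletion, which it calls successful, the study shows retinal and choroidal Ceacam1 mRNA and staining of the protein in both genotypes. Transcripts may keep the exons that were not deleted, so the gene does not check the labels.

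In 5 libraries the 10 photoreceptor genes of a marker list summed to between 561798 and 1052677, against 4051 to 266748 in the other 19. These were Ceacam1-/- laser libraries 14, 15 and 18, Ceacam1-/- library 23 and wild type library 21 without laser. The 3 Ceacam1-/- laser libraries also stood apart in other markers. Their 15 myeloid genes summed to 20883 to 35527, against 76258 to 115119 in the other 4 libraries of the group, and their 10 fibroblast genes to 48556 to 117527, against 440767 to 688380. Endothelial sums were 9785 to 18932, against 30294 to 45347, and pigment epithelium sums 41721 to 71731, against 202346 to 372603. Their neutrophil sums overlapped with the other 4, and their surface epithelium sums had a median of 6207, against 927. For laser in Ceacam1-/- mice, values without libraries 14, 15 and 18 are given beside those of all libraries where they moved a call or a direction.

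To show what lies in front of genes compared after laser, the RefSeq promoter windows of C3ar1, C5ar1 and Cfp, which were called as higher, and of C3, which was not called, are printed, from 250 bases before to 50 bases after the start of transcription on the build GRCm38.p6. Of the 9 genes, 7 had a window in the table, all but Cfb and Cfi. Capitals mark matches to 6 short patterns searched on either strand. The patterns were GGNNTTTCC, a core of NF-kB sites, TTCNNNGAA of STAT sites, GAAA and GAAA with any 2 bases between them, of interferon response elements, GAGGAAGT of sites of the myeloid factor PU.1, TTGCNNAA of C/EBP sites and TATAAA of the TATA box.
C3, chr17:57228087-57228386, minus strand: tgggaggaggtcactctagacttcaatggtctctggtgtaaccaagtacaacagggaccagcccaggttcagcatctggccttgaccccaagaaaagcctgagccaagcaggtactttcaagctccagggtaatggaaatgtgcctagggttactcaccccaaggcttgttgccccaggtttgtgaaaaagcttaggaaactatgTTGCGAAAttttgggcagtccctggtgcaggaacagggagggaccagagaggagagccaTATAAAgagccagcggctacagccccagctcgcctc
C3ar1, chr6:122856108-122856407, minus strand: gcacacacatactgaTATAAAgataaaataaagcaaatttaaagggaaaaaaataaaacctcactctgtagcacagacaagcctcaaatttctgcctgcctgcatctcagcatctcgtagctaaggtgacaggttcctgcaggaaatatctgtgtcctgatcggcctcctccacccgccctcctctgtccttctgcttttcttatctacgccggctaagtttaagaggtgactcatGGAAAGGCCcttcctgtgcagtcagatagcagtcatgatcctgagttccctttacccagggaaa
C5ar1, chr7:16259289-16259588, minus strand: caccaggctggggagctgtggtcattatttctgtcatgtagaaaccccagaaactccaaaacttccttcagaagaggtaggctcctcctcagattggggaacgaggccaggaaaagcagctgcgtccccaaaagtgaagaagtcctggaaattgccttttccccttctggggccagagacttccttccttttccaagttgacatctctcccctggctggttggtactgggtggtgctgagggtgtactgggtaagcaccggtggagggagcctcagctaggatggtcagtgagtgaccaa
Cfp, chrX:20931506-20931805, minus strand: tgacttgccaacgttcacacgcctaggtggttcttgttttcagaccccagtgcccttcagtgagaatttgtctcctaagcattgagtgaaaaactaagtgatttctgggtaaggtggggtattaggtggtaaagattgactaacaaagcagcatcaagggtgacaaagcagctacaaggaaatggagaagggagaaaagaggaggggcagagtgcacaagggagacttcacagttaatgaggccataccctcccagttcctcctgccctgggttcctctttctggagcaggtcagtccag
The C3 window held TTGCNNAA from 45 to 38 bases before the start, a pattern found in 10.8% of 32851 windows, and TATAAA at 15 to 20 bases after it (13.6%). The C3ar1 window held GGNNTTTCC on the reverse strand from 14 to 6 bases before the start (5.82%) and TATAAA at 235 to 230 bases before it. None of the 6 patterns was matched in the windows of C5ar1 and Cfp. In the window of Cd59a the interferon response pattern was matched from 187 to 178 bases before the start (3.44%). None of the 7 windows had TTCNNNGAA (8.3% of windows) or GAGGAAGT (3.2%). A match shows only that the letters are present.

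After laser, 5 of the 9 genes were higher in wild type choroid at an adjusted p under 0.05 (limma, Benjamini-Hochberg over 19950 genes tested), namely the receptors C3ar1 and C5ar1, the activation genes Cfb and Cfp, and the inhibitor Cfi. Among all genes 5.28% were called, 4.23% as higher and 1.05% as lower. In Ceacam1-/- choroid the same 5 genes were called, where 3.72% of all genes were called, 2.07% as higher and 1.65% as lower. Of these 5, Cfi reached the minimum mean set for testing through the laser libraries alone, so its calls are not independent of that filter. Cfi had means of 42.0 and 25.6 normalized counts after laser in wild type and Ceacam1-/- choroid, against 1.87 and 2.06 without it. The number of genes called as higher in both genotypes was 296, or 1.48%. No member was called as lower in either genotype. Over the 9 genes the median log2 fold change was 1.55 for wild type and 1.34 for Ceacam1-/- choroid, and that of all genes tested was -0.10 and 0.02. In such bulk tissue, more cells of a type and more RNA per cell cannot be told apart.

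**Figure D1:**
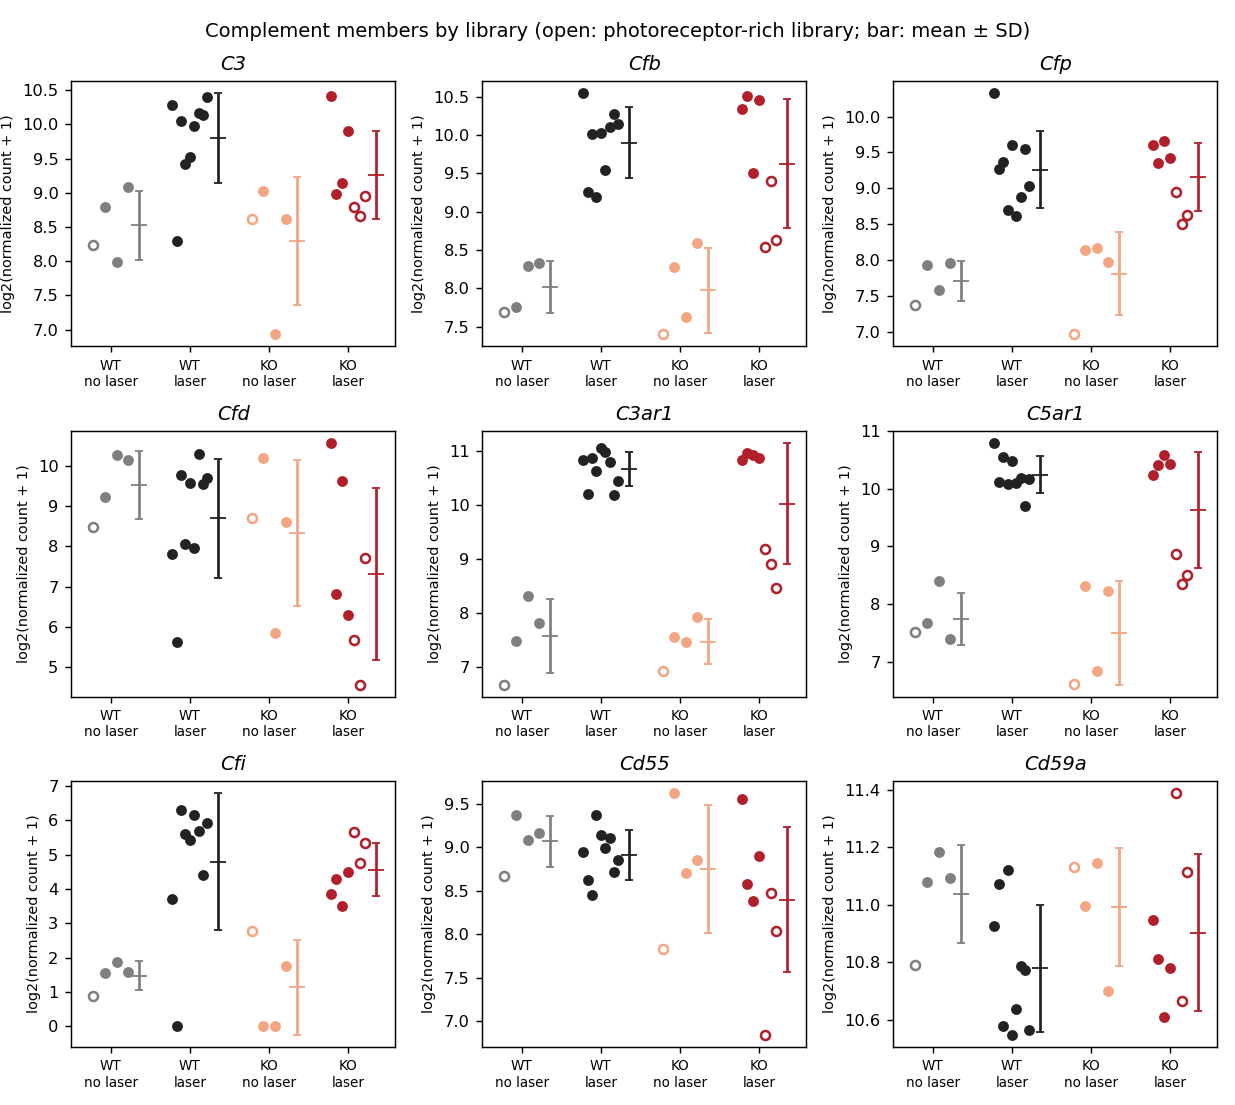
Normalized counts of the 9 complement genes in each library, as log2 of the value plus 1, by genotype (WT, wild type; KO, Ceacam1-/-) and laser. Each point is 1 library, open points are the 5 libraries rich in photoreceptor genes, and bars show mean ± SD. C3ar1 and C5ar1 lie higher in every laser library than in any library without laser of the same genotype, and Cfd is scattered in all 4 groups.

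The receptors moved most among the abundant members. C3ar1, the receptor of C3a, is a G protein-coupled receptor found mainly on myeloid cells (ENSMUSG00000040552, GRCm39 chr6:122823393-122833122, minus strand). In wild type choroid without laser it had 102, 178, 319 and 225 normalized counts, and after laser 1163 in the lowest, 1783 in the median and 2127 in the highest of 9 libraries. The groups did not overlap, and the ratio of their means was 8.05. In Ceacam1-/- choroid the values were 122, 188, 177 and 245 without laser and 353, 1834 and 2006 as lowest, median and highest of 7 after laser, again without overlap (ratio 7.10). The log2 fold change was 3.09 ± 0.41 (SE) in wild type (limma adjusted p = 5.03e-05) and 2.55 ± 0.42 in Ceacam1-/- mice (adjusted p = 0.0016).

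C5ar1, the receptor of C5a, which draws neutrophils and monocytes (ENSMUSG00000049130, GRCm39 chr7:15980668-15993465, minus strand), was also called in both genotypes. It had 181, 203, 338 and 167 normalized counts in wild type libraries without laser and 834, 1153 and 1773 as lowest, median and highest after laser. In Ceacam1-/- libraries it had 97.0, 318, 113 and 299 without laser and 326, 1216 and 1535 after it. Neither pair of groups overlapped, although the lowest Ceacam1-/- laser library stood close to the highest without laser. C5ar1 thus rose by 2.50 ± 0.40 on the log2 scale in wild type (limma adjusted p = 0.0004) and 2.13 ± 0.42 in Ceacam1-/- mice (adjusted p = 0.0066).

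Within the 7 Ceacam1-/- laser libraries the receptors fell into separate levels. C3ar1 was at 1918 ± 76.7 (SD, n = 4) in the libraries poor in photoreceptor genes and at 472 ± 116 (SD, n = 3) in libraries 14, 15 and 18. C5ar1 was at 1375 ± 131 (SD, n = 4) and 385 ± 71.9 (SD, n = 3). The 3 libraries low in both receptors are those with the low myeloid, fibroblast, endothelial and pigment epithelium sums. Without these 3, a step chosen after the data were seen, the log2 fold change in Ceacam1-/- mice was 3.43 for C3ar1 and 2.92 for C5ar1, and both were called.

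Of the activation genes, Cfb and Cfp were called in both genotypes and C3 and Cfd in neither. Factor B (ENSMUSG00000090231, GRCm39 chr17:35074852-35081559, minus strand) had 206, 215, 312 and 320.5 normalized counts in wild type libraries without laser and 585, 1042 and 1494 as lowest, median and highest after it. Ceacam1-/- libraries had 168, 309, 196 and 384, against 371, 727 and 1449.6 after laser. The wild type groups did not overlap, whereas the lowest Ceacam1-/- laser library, number 14, lay below the highest without laser. As log2 fold change this was 1.88 ± 0.35 in wild type (limma adjusted p = 0.0017) and 1.65 ± 0.36 in Ceacam1-/- mice (adjusted p = 0.0128), or 2.23 and 2.04 there without libraries 14, 15 and 18 and without all 5 photoreceptor-rich libraries. By gene position Cfb overlaps Gm20547 on its own strand and Nelfe on the other, and the counting of reads by strand was not stated.

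Properdin, the stabilizer of the C3-cleaving enzyme, is made by leukocytes (Cfp, ENSMUSG00000001128, GRCm39 chrX:20791688-20797794, minus strand). It had 165, 243, 190.4 and 248 normalized counts in wild type libraries without laser and 391, 618 and 1283 as lowest, median and highest after it. In Ceacam1-/- libraries it had 124, 282, 288 and 249.7 without laser and 360.4, 654 and 810.3 after it. The groups did not overlap in either genotype. Group means had a ratio of 3.09 for wild type and 2.52 for Ceacam1-/- choroid, with a log2 fold change of 1.55 ± 0.29 (limma adjusted p = 0.0019) and 1.34 ± 0.30 (adjusted p = 0.0150). The latter was 1.70 without libraries 14, 15 and 18 and 1.41 without all 5 photoreceptor-rich libraries, and was called in both.

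C3, on which all complement pathways meet (ENSMUSG00000024164, GRCm39 chr17:57510964-57535155, minus strand), had 301, 445, 252 and 542 normalized counts in wild type libraries without laser and 313, 1055 and 1346 as lowest, median and highest after it. In 8 of 9 wild type laser libraries it was above every library without laser, and library 2 lay among them. Ceacam1-/- libraries had 390.2, 519.8, 121 and 392 without laser and 403, 504 and 1363 after it, with 4 of 7 laser libraries inside the range without laser. The log2 fold change was 1.28 ± 0.39 in wild type (95% interval 0.47 to 2.08, limma adjusted p = 0.0569) and 0.97 ± 0.41 in Ceacam1-/- mice (0.13 to 1.81, adjusted p = 0.180). The call in wild type depends on the fit: it was made with array weights (adjusted p = 0.0133) and among wild type libraries alone (adjusted p = 0.0231). In Ceacam1-/- mice the log2 fold change was 0.51 without library 25 (adjusted p = 0.669) and 1.316 without libraries 14, 15 and 18 (adjusted p = 0.0713).

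Factor D, also called adipsin, is secreted mainly by fat cells (Cfd, ENSMUSG00000061780, GRCm39 chr10:79726668-79728496, plus strand). It had 355, 595, 1226 and 1143 normalized counts in wild type libraries without laser and 47.9, 749 and 1257 as lowest, median and highest after it. In Ceacam1-/- libraries it had 419, 1172, 56.1 and 389.6 without laser and 22.6, 112 and 1514 after it. All 4 groups overlapped. On the log2 scale the SD of Ceacam1-/- laser libraries was 2.14, against 1.98 for Cfi in wild type laser libraries, the next widest of the other members in any group. The log2 fold change after laser was -0.82 ± 0.95 in wild type (95% interval -2.78 to 1.13, limma adjusted p = 0.643) and -1.02 ± 0.99 in Ceacam1-/- mice (-3.06 to 1.02, adjusted p = 0.591). The value in Ceacam1-/- mice was -0.40 without library 24, -1.85 without library 25 and -0.015 without libraries 14, 15 and 18.

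The 3 control proteins differed among themselves. Factor I, a protease that inactivates C3b (Cfi, ENSMUSG00000058952, GRCm39 chr3:129629533-129668981, plus strand), was the scarcest member. It had 0.849, 1.95, 2.69 and 1.98 normalized counts in wild type libraries without laser, and after laser it was listed at 0 in library 2 and had 47.2 in the median and 77.4 in the highest library. Ceacam1-/- libraries without laser had 5.85 and 2.38 where it was found, with 2 libraries listed at 0, and after laser 10.3, 21.6 and 49.5 as lowest, median and highest. Apart from wild type library 2, all laser libraries stood above all libraries without laser. Its mean without laser was 1.87 in wild type and 2.06 in Ceacam1-/- mice. It passed the minimum mean of 10 set for testing through the laser libraries alone, so its laser test is not independent of that filter. The log2 fold change on values plus 1 was 3.32 ± 0.84 in wild type (limma adjusted p = 0.0202) and 3.43 ± 0.87 in Ceacam1-/- mice (adjusted p = 0.0307). With a pseudocount of 10 in place of 1 these values were 1.88 and 1.496. Both calls were fragile. The call in wild type was lost without library 21, 22 or 27 (adjusted p = 0.0859, 0.0509 and 0.0598), and that in Ceacam1-/- mice without library 24 or 25 (adjusted p = 0.127 and 0.170), without libraries 14, 15 and 18 (2.91, adjusted p = 0.0749) and under 4 other alternatives. By gene position Cfi overlaps Gm36180 on the other strand, as C3 does Gm65552, Cfp Gm61816 and Cd55 Gm16083. Whether their exons share bases was not checked.

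Cd55, or decay-accelerating factor, takes the C3-cleaving enzyme apart on host membranes (ENSMUSG00000026399, GRCm39 chr1:130366469-130390926, minus strand). It had 405, 659, 539 and 571 normalized counts in wild type libraries without laser and 349, 491 and 659 as lowest, median and highest after it. Values in Ceacam1-/- libraries were 227, 784, 417 and 459.8 without laser and 114, 354 and 748 after it. The ranges with and without laser covered each other. Its log2 fold change was -0.16 (95% interval -0.85 to 0.53, limma adjusted p = 0.809) in wild type and -0.36 (-1.08 to 0.36, adjusted p = 0.595) in Ceacam1-/- mice, where it was 0.10 without libraries 14, 15 and 18. With single libraries without laser left out it ran from -0.29 to -0.059 in wild type and from -0.66 to -0.068 in Ceacam1-/- mice.

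Cd59a anchors to the cell membrane and blocks the last step, the lytic pore (ENSMUSG00000032679, GRCm39 chr2:103926132-103947029, plus strand). It had 1769, 2163, 2327 and 2182 normalized counts in wild type libraries without laser and 1495, 1747 and 2226 as lowest, median and highest after it. In Ceacam1-/- libraries it had 2241, 2039, 2263 and 1662 without laser and 1561, 1796 and 2679 after it. It was the steadiest member, and groups overlapped. Its log2 fold change was -0.26 (95% interval -0.56 to 0.05, limma adjusted p = 0.333) in wild type and -0.09 (-0.41 to 0.23, adjusted p = 0.776) in Ceacam1-/- mice. With single libraries without laser left out it ran from -0.34 to -0.21 in wild type and from -0.19 to -0.040 in Ceacam1-/- mice.

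Both membrane inhibitors have a near copy in the mouse genome. Cd55 and Cd55b share 91.1% of 1227 aligned transcript bases, and Cd59a and Cd59b share 86.7% of 1583, so reads may be split between copies. Cd55b was listed at 0 in all wild type and Ceacam1-/- libraries without laser and reached 5.81 at most after laser. Cd59b had 93.5 ± 19.6 normalized counts in wild type without laser (SD, n = 4) and 104 ± 26.3 after it (n = 9), with log2 fold changes of 0.14 in wild type (limma adjusted p = 0.802) and -0.72 in Ceacam1-/- mice (adjusted p = 0.171). Without library 23 the latter was -0.98 and was called as lower (adjusted p = 0.0371).

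**Figure D2:**
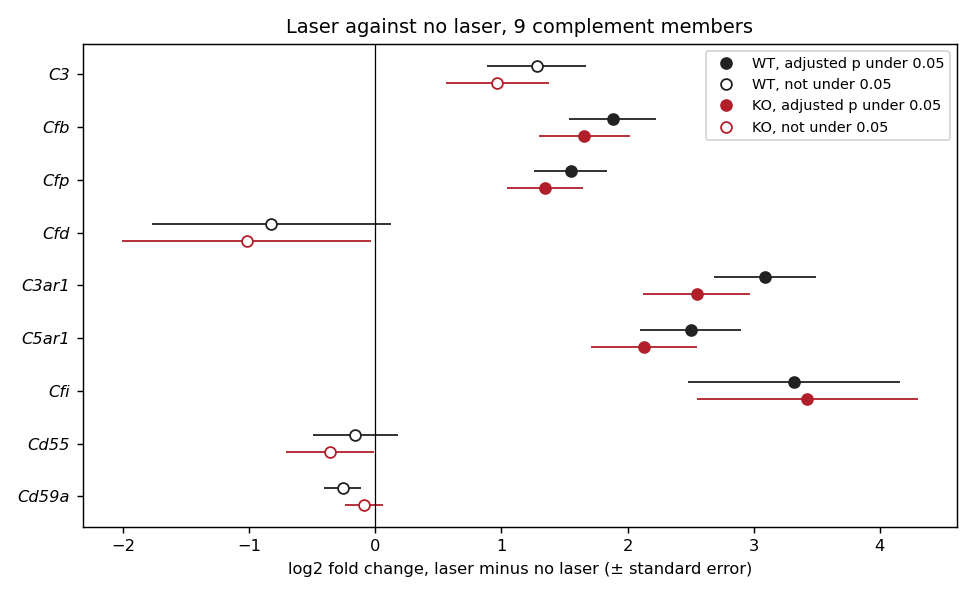
Log2 fold change of the 9 complement genes after laser against no laser, in wild type (WT) and Ceacam1-/- (KO) choroid, with standard errors; filled points have a limma adjusted p under 0.05. Filled points lie between 1.34 (Cfp) and 3.43 (Cfi), and Cfd, Cd55 and Cd59a lie below 0 in both genotypes without a call.

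Single genes were also compared by a two-sided exact permutation test over libraries. In wild type mice Cfb, Cfp, C3ar1 and C5ar1 did not overlap between laser and no laser, which held for 4.5% of all genes tested in the higher direction, and reached an exact permutation p of 0.0028, the smallest that 715 regroupings allow. Both C3 and Cfi had an exact permutation p of 0.0140. In Ceacam1-/- mice Cfp, C3ar1 and C5ar1 did not overlap, which held for 1.17% of all genes in the higher direction. They reached an exact permutation p of 0.0061, the smallest that 330 regroupings allow. Cfb had an exact permutation p of 0.0121 and C3 of 0.0606. Cfi did not overlap there either, also with an exact permutation p of 0.0061. It reached the minimum mean through the laser libraries alone, so its values in both genotypes are not independent of that filter and cannot be set beside these shares. The called members were therefore not the same as those without overlap.

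The laser calls in Ceacam1-/- mice rested on a spread estimated over all 24 libraries. In a fit of the 11 Ceacam1-/- libraries alone, 0 of 9 members were called by limma, 0.187% of all genes (38) were called, and the adjusted p of the 5 genes ran from 0.0805 (Cfi) to 0.172 (Cfb). Without library 25, 2 of 9 were called, against 0.742% of all genes. The level of 4 Y-linked genes, which males alone carry, summed to above 1000 in 5 of 9 wild type and 1 of 7 Ceacam1-/- laser libraries. Without laser this held for 1 of 4 libraries in each genotype, and the sum was at most 39.2 in all others. As far as this sum marks sex, sex was uneven between groups, with the highest share of males in wild type laser libraries. With this sum as a covariate 5 of 9 members were called after laser in both genotypes. Of all genes 3.97% were called in wild type and 3.18% in Ceacam1-/- mice.

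Levels of different genes were compared per kilobase of the canonical transcript of the GENCODE annotation. In wild type choroid without laser the order was Cd59a (1238 ± 140.4 normalized counts per kilobase, SD, n = 4), Cfd (883 ± 449.6), Cd55 (166 ± 32.2), Cfp (129 ± 24.8), C5ar1 (87.3 ± 31.0), Cfb (78.7 ± 18.4), C3 (74.6 ± 25.8), C3ar1 (41.1 ± 18.2) and Cfi (0.855 ± 0.348). The ranges of neighbours in this order were apart between Cfd and Cd55 and between C3ar1 and Cfi, and overlapped otherwise. After laser in wild type mice Cd59a (1040 ± 163, n = 9) and Cfd (622 ± 428) were followed by C5ar1 (487 ± 111), Cfp (398 ± 167), C3ar1 (331 ± 69.8), Cfb (298 ± 89.8), C3 (187 ± 63.3), Cd55 (149 ± 29.1) and Cfi (19.3 ± 12.1). Here the ranges were apart between Cd55 and Cfi alone. Cd55 was thus at rank 3 of 9 per kilobase without laser and at rank 8 after it. In Ceacam1-/- mice Cd59a ranked highest and Cfi lowest, with and without laser. Cfd followed Cd59a by its mean, but after laser (421 ± 595, n = 7) it was above C5ar1 in 3 of 7 libraries, and its median was 119, against 478 for C5ar1.

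The laser effect did not differ detectably between genotypes. The interaction of laser and genotype was called for 0 of 9 members and for 0.0% of all genes by limma, and 0 of 9 had an unadjusted p under 0.05, against 6.22% of all genes. The member with the lowest p was C3ar1, with a laser effect smaller by 0.54 on the log2 scale in Ceacam1-/- mice (-0.54, 95% interval -1.76 to 0.68, limma adjusted p = 0.737). Without the 3 photoreceptor-rich laser libraries its difference was 0.34, in the other direction. The intervals of the other 8 also included 0, and those of Cfd (-3.02 to 2.64) and Cfi (-2.40 to 2.61) were the widest.

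Genotypes were also compared directly, which was the question of the study in choroid without laser. The study used DESeq2 with sex as a covariate there. It reports some differentially expressed genes and a high similarity of the genotypes. The fit here was made by limma without sex, so its counts do not stand for those of the study. Without laser 0 of 8 members tested were called, 0.0% of genes were called in all, and 0 members had an unadjusted p under 0.05, against 1.53% of all genes. Cfi was too low to be tested there. Differences ran from -1.19 for Cfd (95% interval -3.09 to 0.71) to 0.10 for Cfp (-0.64 to 0.85) as log2 of Ceacam1-/- over wild type, and the limma adjusted p was 0.999 for each. The value of Cfd was -1.81 without library 24 and -0.36 without library 25. The intervals were narrowest for Cd59a (-0.44 to 0.35). With 4 libraries against 4 the smallest exact permutation p is 0.0286, and the lowest reached by a member was 0.343, for Cfd.

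After laser 0 of 9 members were called between genotypes, against 0.0202% of genes, and 0 had an unadjusted p under 0.05, against 22.7% of all genes. Of the 9 differences 8 were negative and 1 was positive, as were 51.2% of all differences. C3ar1 was lower by 0.64 on the log2 scale in Ceacam1-/- mice (-0.64, 95% interval -1.39 to 0.11, limma adjusted p = 0.280) and C5ar1 by 0.61 (-0.61, -1.30 to 0.07, adjusted p = 0.259). Without libraries 14, 15 and 18 both stood above 0, at 0.24 for C3ar1 and 0.18 for C5ar1, as did Cfb (0.30) and Cfp (0.25). Cfb and Cfp also turned with all 16 libraries kept, at 0.32 and 0.27 with array weights. The differences of C3, Cfd, Cfi and Cd55 were negative under each alternative run, up to -0.19, -0.33, -0.14 and -0.057, and were not called.

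Of 41 other complement genes, 31 were tested in the fit of 24 libraries. After laser in wild type mice 6 were called as higher and 0 as lower, where 4.23% of all genes were called as higher and 1.05% as lower. All 6 belong to the leukocyte receptors or to C1q. Itgam, Itgax and Itgb2 form complement receptors of leukocytes that bind fragments of C3. Itgb2, their shared chain, had 138 ± 33.2 normalized counts without laser (SD, n = 4) and 1343 ± 285 after it (n = 9), a log2 fold change of 3.27 ± 0.35. Itgax rose by 3.24 ± 0.50 and Itgam by 2.26 ± 0.49, and the 3 C1q chains, which start the classical pathway, rose by 1.75 ± 0.36 (C1qa), 1.96 ± 0.36 (C1qb) and 1.76 ± 0.34 (C1qc). The limma adjusted p of Itgam (0.0066) became 0.0612 without library 21.

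In Ceacam1-/- mice 2 of the 31 were called as higher, where 2.07% of all genes were called as higher and 1.65% as lower. These 2 were Itgb2 (2.16 ± 0.36, limma adjusted p = 0.0016) and Itgax (2.18 ± 0.53, adjusted p = 0.0227). Among Ceacam1-/- libraries alone neither was called (adjusted p = 0.118 and 0.205), and Itgax was lost without library 24 or 25 (adjusted p = 0.104 and 0.0596). The C1q chains had log2 fold changes of 0.93 (C1qa), 1.20 (C1qb) and 1.09 (C1qc) there and were not called. These values rested on libraries 14, 15 and 18, in which the genes of the classical and lectin pathways, led by C1qb, summed to 7990 to 11362, against 33854 to 37713 in the other 4 laser libraries and 22873 to 38700 in wild type laser libraries. Without the 3 libraries the C1q chains were called, at 1.71 ± 0.24 (C1qa), 1.95 ± 0.24 (C1qb) and 1.77 ± 0.24 (C1qc, limma adjusted p = 5.88e-05). In that fit 13 of the 31 genes were called as higher in Ceacam1-/- mice and 11 in wild type mice. Of all 19723 genes tested, 1499 and 1543 were called as higher, and 10.2% and 10.8% in either direction. C4b, the classical counterpart of C3, was called as lower (-0.997 ± 0.28, adjusted p = 0.0496), a call lost under 19 of 21 alternatives and at -0.56 and -0.34 without the 3 and the 5 photoreceptor-rich libraries (adjusted p = 0.197 and 0.399). With all libraries, neither comparison of genotypes nor the interaction called any of these genes, and a call in 1 genotype alone does not show a difference between genotypes.

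By role, receptors had 5 of 8 genes called as higher in wild type and 4 of 8 in Ceacam1-/- mice, members included, with a median log2 fold change of 2.38 and 1.88, where 4.23% and 2.07% of all genes were called as higher. Control proteins had 1 of 13 tested called in either genotype, and a median of 0.14 and -0.09. The called gene was Cfi, which reached testing through the laser libraries alone. Of the genes of the classical and lectin pathways 3 of 12 were called as higher in wild type mice and 0 in Ceacam1-/- mice, and of the terminal pathway 0 of 3 in both. Without libraries 14, 15 and 18, Ceacam1-/- mice had 6 of 8 receptors, 2 of 13 control proteins (Cr1l and Serping1), 6 of 12 genes of the classical and lectin pathways and 1 of 3 of the terminal pathway (C6) called as higher. Of all genes 10.2% were called there, and 1499 of 19723 as higher. Wild type mice had 6 of 8 receptors, 1 of 13 control proteins, 6 of 12 genes of the classical and lectin pathways and 1 of 3 of the terminal pathway called as higher in that fit. Of all genes 10.8% were called in wild type mice, and 1543 of 19723 as higher.

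**Figure D3:**
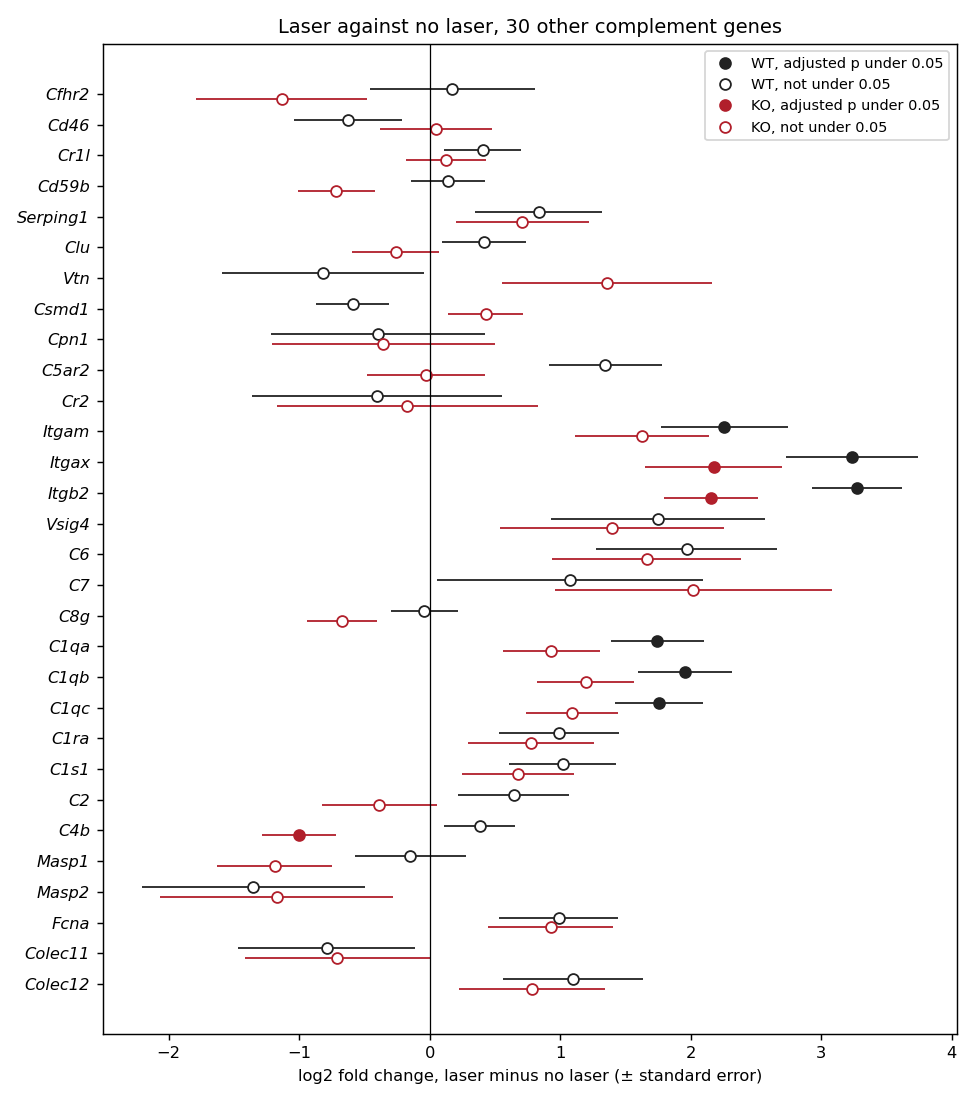
Log2 fold change after laser against no laser of 30 of the 31 other complement genes tested, in wild type (WT) and Ceacam1-/- (KO) choroid, with standard errors. Filled points, with a limma adjusted p under 0.05, are the integrin chains of complement receptors and C1q on the side of higher values and C4b on the side of lower ones.

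Markers of cell types moved beside these genes. Of 15 myeloid genes 13 were called as higher in wild type mice and 11 in Ceacam1-/- mice, with a median log2 fold change of 2.34 and 1.56, against 4.23% and 2.07% of all genes called as higher. Without libraries 14, 15 and 18 the values in Ceacam1-/- mice were 14 of 15 and 2.31, and 15 of 15 were called in wild type mice. That fit called 10.2% and 10.8% of all genes in Ceacam1-/- and wild type mice, and 1499 and 1543 of 19723 as higher. The summed level of the myeloid genes was 12439 to 24994 in wild type libraries without laser and 61270 to 151589 after it, and 14317 to 17529 against 20883 to 115119 in Ceacam1-/- libraries. Lyz2 was the most abundant of them, and none was at 0 in every library. Of 7 neutrophil genes tested 3 were called as higher in wild type and 2 in Ceacam1-/- mice. The summed neutrophil level was low, at 226 to 362 without laser and 554 to 2647 after it in wild type mice. In Ceacam1-/- mice it was 315 to 732 without laser and 317 to 1403 after it. After laser in wild type mice Mmp8 was the most abundant gene in 5 of 9 libraries and Ltf in 1. The defining gene Ly6g was listed at 0 in all libraries without laser and had 4.14 at most after it. Fibroblast genes, led by Col1a1, had 2 of 10 called as higher in wild type and 1 in Ceacam1-/- mice, Lum in both, and 5 and 8 in the fit without libraries 14, 15 and 18. Adipocyte genes, led by Fabp4, had 0 of 8 tested called in wild type mice and 1 in Ceacam1-/- mice, Lipe as lower, a call lost without libraries 14, 15 and 18 and made in both genotypes without all 5 photoreceptor-rich libraries.

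Lists of endothelial, pigment epithelium, photoreceptor, muscle and surface epithelium genes, each of 10 genes, had no gene called after laser with all libraries. The most abundant genes were Plvap for endothelium, Ttr for pigment epithelium, Acta1 for muscle and Krt12 for surface epithelium. The labelled tissue thus held its vessel and pigment epithelium markers, and also RNA of muscle and photoreceptors and, in some libraries, of cornea. Summed levels were at least 16001 for muscle and 4051 for photoreceptors in every library, and ran from 359 to 348940 for surface epithelium. Median log2 fold changes were 0.43 and -0.15 for endothelial genes in wild type and Ceacam1-/- mice, 0.02 and -1.56 for pigment epithelium, -1.40 and 2.23 for photoreceptors, -0.95 and -2.08 for muscle and -1.57 and -2.19 for surface epithelium. Without libraries 14, 15 and 18 the medians in Ceacam1-/- mice were 0.47 for endothelium, -0.51 for pigment epithelium, with Pmel called as higher, 0.43 for photoreceptors, -1.55 for muscle and -3.27 for surface epithelium. Without all 5 photoreceptor-rich libraries 9 of 10 muscle genes were called as lower in Ceacam1-/- mice and 3 of 10 in wild type mice. In that fit 14.9% and 8.39% of all genes were called, and 1226 and 516 of 19596 as lower. The photoreceptor medians were 1.82 and -0.66 there. The part of such changes in tissue content in the results for the complement genes was not tested.

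How members varied among libraries of the same group was described by the correlation r of their deviations from the 4 group means, over 24 libraries and again over the 19 without the photoreceptor-rich ones. No test was made, and the part of tissue content in these correlations was not tested. Most like C3ar1 were Lcp1 (r = 0.97, and 0.86 over 19), Cybb (0.96 and 0.85), the catalytic chain of the phagocyte oxidase, and Cyth4 (0.94 and 0.66). With the mean of the myeloid list C3ar1 had r = 0.92 and 0.64, and with the fibroblast list r = 0.87 and 0.53. C5ar1 had r = 0.88 and 0.73 with the myeloid list. The genes most like C5ar1 were Rnase4 (0.92), Ccn1 (0.92) and Lox (0.92), and it had r = 0.87 and 0.80 with the fibroblast list.

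Cfd went with fat genes. The most like were Adipoq, the gene of adiponectin (r = 0.94, and 0.94 over 19), Plin1, a coat protein of lipid droplets (0.92 and 0.93), and Cidec, another droplet protein (0.90 and 0.94), and its r with the adipocyte list was 0.92 and 0.96. The next highest r of a member with that list was that of C3, at 0.67 and 0.68. Adipoq, in turn, ranged from 1.01 to 326 normalized counts among the 7 Ceacam1-/- laser libraries.

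**Figure D4:**
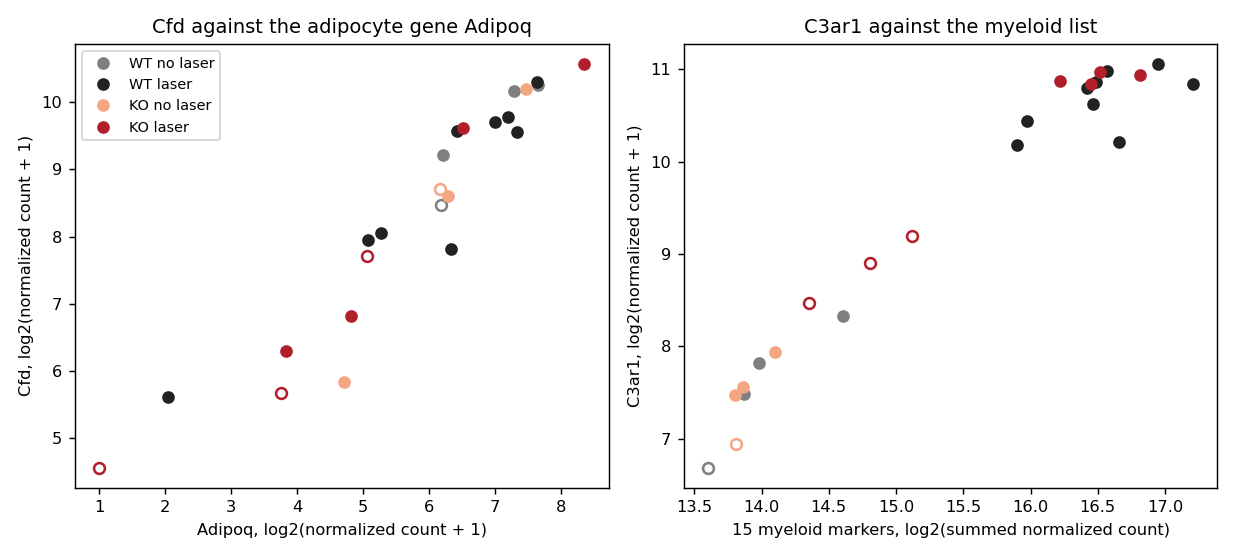
Left, Cfd against Adipoq in each of the 24 libraries, both as log2 of the normalized count plus 1. Right, C3ar1 in the same unit against log2 of the summed normalized count of 15 myeloid genes; open points are the photoreceptor-rich libraries, and colours give genotype (WT, wild type; KO, Ceacam1-/-) and laser. Cfd follows Adipoq in all groups, and the 3 open Ceacam1-/- laser points lie between the Ceacam1-/- libraries without laser and the other Ceacam1-/- laser libraries in C3ar1 and in myeloid genes.

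For the other members the same list was mixed. Cfb was most like 2 non-coding transcripts, 2600006K01Rik (r = 0.89) and 2900041M22Rik (0.87), and the matrix gene Fbln1 (0.86), and its r with the fibroblast list was 0.81 and 0.52. Cfp was most like Lgals1 (0.89), the pseudogene Rps16-ps2 (0.87) and Fam221b (0.86), Cfi like Zfp532 (0.89), Nos1ap (0.86) and Hipk2 (0.86), and C3 like Prokr1 (0.82), Ddx10 (0.79) and Ptgfr (0.76). Cd55 was most like Map3k20 (0.89), 3425401B19Rik (0.89) and Slc44a2 (0.89), and Cd59a like Rmst (0.77), Cfap410 (0.76) and Garin5a (0.76). Among pairs of members the highest r was that of C3ar1 with C5ar1 (0.86, and 0.60 over 19), followed by Cfb with C3ar1 (0.71 and 0.29), Cfb with C5ar1 (0.71 and 0.38) and C3 with Cfd (0.70 and 0.66). Of these 4, C3 with Cfd was the pair whose r moved least without the photoreceptor-rich libraries.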

How the data were processed

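Libraries were prepared from total RNA with the SMART-Seq mRNA LP kit and sequenced with paired reads on an Illumina NextSeq. Per the submitters' processing notes, FastQC 0.11.5, Salmon 1.10.3, DESeq2 1.44.0 and the build GRCm39 were used. The deposited values are normalized counts (here treated as a signal), which the authors made from estimated reads of each gene. The authors removed 1 outlier library that their text does not name. Depth in reads could not be recovered, since only 36.3% to 77.6% of a library's values below 5 came within 5% of whole steps, so no count test was run.

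Groups were taken from the labels. Values were transformed to log2 with a pseudocount of 1, which understates changes of low genes, and genes with a mean of at least 10 over the libraries of a fit were tested in R 4.3.3 by limma 3.58.1, letting the variance follow the mean, with Benjamini-Hochberg adjustment at 0.05. Laser and its interaction with genotype were fitted on 24 libraries, and genotype on the 8 libraries without and the 16 with laser. The size of the estimates was checked on simulated independent values with known changes. These lack the variation in tissue content that genes share in these libraries, so the check does not bear on the calls. Sex, a covariate in the study, was not given in the labels.

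The 9 genes and all lists were chosen with earlier results of these data known. Named were the 9 genes, called genes of the complement lists, the copies Cd55b and Cd59b, the 3 genes most like each member, and the most abundant gene of each marker list. Other genes were chosen after their values were seen. The values of 2 genes of these lists are not reported here. Alternatives to these choices were array weights, no variance trend, upper-quartile scaling or quantile normalization, a Y-linked covariate, a pseudocount of 0.5 or 10, a minimum mean of 50 or none, fits on other sets of libraries, and omission of single libraries without laser. A photoreceptor covariate and leaving out photoreceptor-rich libraries (a summed count over 500000) were added after the data were seen. Gene positions and lengths came from the GENCODE annotation, which matched 99.1% of identifiers. Promoter windows came from RefSeq (GRCm38.p6). Tables and plots used Python 3.11.15 with scipy 1.17.1, numpy 2.4.6, matplotlib 3.10.9 and pandas 2.3.3.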

Additional observations from a re-analysis of the deposited data

Results flagged for a closer look

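Each of the 9 genes was screened in each of the 4 groups for a library far from the others, on the log2 scale, which gave 36 combinations. Chance flags about 1 in 20 such groups, and 3 were flagged. In wild type mice after laser, library 2 was far below the other 8 for C3, at 313 normalized counts, and for Cfi, where it was listed at 0. The same library had the lowest Cfd of its group, at 47.9, and 1185 normalized counts of C3ar1, within the range of its group. In Ceacam1-/- mice without laser, library 23, 1 of the 5 photoreceptor-rich libraries, was far below the other 3 for Cfp, at 124 normalized counts.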

How the results depend on the processing

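No paired analysis was possible because library numbers are unique and no groups share them. C3ar1, C5ar1, Cfb and Cfp were called after laser in wild type mice under each of 21 alternatives, with adjusted p up to 0.0171. In Ceacam1-/- mice each of these 4 was lost among Ceacam1-/- libraries alone, and Cfb and C5ar1 also without library 25 (adjusted p = 0.0801 and 0.0509). Cfi, which was untested at a mean of at least 50, was lost under 3 of 20 alternatives in wild type and 7 of 20 in Ceacam1-/- mice. C3 passed in wild type mice under 5 alternatives and Cd59a under array weights (-0.30, adjusted p = 0.0361). Low values limit the precision for Cfi, and the 4 libraries without laser per genotype limit every comparison that uses them. The causes of the changes given here were not tested.

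For laser in wild type mice 1053 genes were called, against 6505 with array weights, 2274 among wild type libraries alone, 1645 and 2128 without the 5 and the 3 photoreceptor-rich libraries, and 479 (without library 21) to 1257 (without library 23) when each library without laser was left out in turn. The members called were then 4 to 6. For laser in Ceacam1-/- mice 742 genes were called, against 437 without a filter, 3551 with array weights, 38 among Ceacam1-/- libraries alone, 2923 and 2005 without the 5 and the 3 libraries, and 148 (without library 25) to 2488 (without library 23). Members called were 0 among Ceacam1-/- libraries alone and 2 to 5 with a library left out. Genotype without laser gave 0 genes, against 1 without trend and with array weights, and 0 to 1 with a library left out. Genotype with laser gave 4 genes, against 2 at a mean of at least 50, 297 with array weights, 9 in the fit of 24 libraries and 2 without the 5 or the 3 libraries.

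Directions that turned were all of differences without a call. Laser in Ceacam1-/- mice turned for Cfd (0.11 without the 5 libraries) and Cd55 (0.10 without the 3), and laser in wild type mice for Cd59b (-0.045 with the photoreceptor covariate, -0.0061 to 0.23 with a library left out). The interaction turned without the 5 libraries for C3 (0.24), Cfb (0.27), Cfd (1.29), C3ar1 (0.46), C5ar1 (0.21) and Cd55 (0.086). Without the 3 it turned for C3 (0.038), Cfb (0.35), Cfd (0.81), Cfp (0.15), Cfi (-0.41), C3ar1 (0.34), C5ar1 (0.42) and Cd55 (0.26). With the photoreceptor covariate it turned for Cfb (0.35), Cfd (0.78), Cfp (0.34), Cfi (-0.48), C3ar1 (0.23), C5ar1 (0.28) and Cd55 (0.31). With array weights it turned for Cfb (0.32), Cfp (0.10), Cfi (-0.11) and C3ar1 (0.11), and for Cfi also with a pseudocount of 10 (-0.39), quantile normalization (-0.62) and the Y-linked covariate (-0.0011). With a library left out it ran from -1.03 to 0.42 for Cfd, -0.27 to 0.65 for Cfi and -0.50 to 0.090 for Cd55.

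Genotype without laser turned for C3 (0.018) and Cfp (-0.080) with the photoreceptor covariate, Cfb (0.037) without the photoreceptor-rich libraries, and C5ar1 (0.44) and Cd55 (0.085) with array weights. With a library left out it ran from -0.47 to 0.22 for C3, -0.25 to 0.14 for Cfb, -0.017 to 0.39 for Cfp, -0.40 to 0.15 for C3ar1, -0.52 to 0.051 for C5ar1 and -0.13 to 0.053 for Cd59a. Genotype with laser turned without the 5 or the 3 libraries for Cfb (0.30), Cfp (0.25), C3ar1 (0.24) and C5ar1 (0.18). It also turned for Cfb with array weights (0.32) and the photoreceptor covariate (0.17), and for Cfp with array weights (0.27), the Y-linked covariate (0.16) and the photoreceptor covariate (0.25).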

Other observations

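Several complement genes that the liver is known to make for plasma were low or listed at 0 in choroid. Of the terminal list 3 of 7 were abundant enough to be tested. C9, C8a and C8b, which form the membrane pore, were listed at 0 in the median library of all 4 groups. This did not hold for the whole list, since C8g, its most abundant gene, had a mean of 67.0 normalized counts over the 24 libraries. Hc, the gene of C5, from which the ligand of C5ar1 is cut, had 2.15 ± 4.20 normalized counts in wild type mice after laser (SD, n = 9), 2.83 ± 2.62 without laser (n = 4), 2.17 ± 4.16 in Ceacam1-/- mice after laser (n = 7) and 18.1 ± 18.2 without laser (n = 4), so that the ranges overlapped. Mbl1, a liver-made starter of the lectin pathway, was listed at 0 in all 24 libraries. Albumin (Alb) did not exceed 5.08 in any library. These genes were chosen after their values were seen.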
